A study of Mus musculus with 6 samples.

Results

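The lysosome is the acidic compartment in which cells break down proteins, sugars, lipids and nucleic acids. Its soluble enzymes are made in the endoplasmic reticulum, tagged with mannose 6-phosphate and carried by receptors, adaptor complexes and clathrin to endosomes, while a proton pump, the V-ATPase, keeps the lumen acidic. In killer lymphocytes the compartment has an additional use, because cytotoxic granules are lysosome-related organelles and some cathepsins activate the proteases stored in them.

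The lysosome genes described here are the 98 genes that carry the KEGG term Lysosome in the deposited table and have 60 or more counts over all 6 libraries. The term stood on 114 of 15601 genes. Ctsw, which encodes cathepsin W, and 3 solute carrier genes were set aside by name, and 12 of the remaining 110 genes fell under the count minimum. The 98 genes lie on 20 chromosomes, 62 of them carry other KEGG terms as well, and all 98 passed the expression filter of the test.

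The libraries were made from mouse liver lymphocytes, which the study's title calls type 1 innate lymphoid cells (ILC1s). Of these, 3 came from the tamoxifen treatment and 3 from the oil treatment, corn oil by the names of the table's columns. Tamoxifen binds oestrogen receptors and is a common trigger of inducible Cre recombinases. RORα, a nuclear receptor, is named in the study's title. The genotype, strain, age and sex of the mice, the dose and time of treatment, and the number of cells or animals behind a library were not stated in the labels.

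Library totals were 5358622 to 5849947 counts in tamoxifen and 5289803 to 6325899 counts in oil, with 13060 to 13414 genes counted in each library. The ILC1 marker list, with all 7 genes in the table, summed to 3229 to 3358 CPM in the tamoxifen libraries and 3300.1 to 3620.0 CPM in the oil libraries. Most of that sum came from Ncr1, Klrb1c and Il2rb, and the sum does not show the single markers, none of which passed after adjustment. Cxcr6 stood at 126, 111 and 157 CPM in the tamoxifen libraries, against 412, 201 and 477 CPM in the oil libraries (log2 fold change -1.47, SE 0.29; edgeR's quasi-likelihood test, adjusted p = 0.385). Itga1 stood at 10.5, 19.5 and 13.3 CPM in the tamoxifen libraries, against 31.8, 35.4 and 32.2 CPM in the oil libraries (log2 fold change -1.19, SE 0.29; adjusted p = 0.766 in the same edgeR test). Both were lower in every tamoxifen library and Klrb1c was higher in every one (log2 fold change 0.26, SE 0.15), and the part of these differences in the lysosome gene values was not tested. The conventional NK cell list summed to 902 to 957 CPM in the tamoxifen libraries and 889.6 to 1113 CPM in the oil libraries. This sum does not show its single markers either. Of 8 tested entries 6 had a lower and 2 a higher estimate in tamoxifen, and none passed after adjustment. Itga2 was lower in every tamoxifen library (log2 fold change -0.896, SE 0.376). The other entries had overlapping groups, among them the entries of Itgam, at -0.71 (SE 0.35) and 1.66 (SE 1.32). The part of these NK marker differences in the lysosome gene values was not tested. The T cell list, which holds genes that ILC1s and NK cells can also transcribe, summed to 552 to 826 CPM in the tamoxifen libraries and 511 to 787 CPM in the oil libraries. The B cell list, with 2 of 6 genes in the table, summed to 366 to 399.6 CPM in the tamoxifen libraries and 397 to 485 CPM in the oil libraries, nearly all of it from Ighm, the gene of the IgM heavy chain. Ighm was lower in every tamoxifen library without passing, at 360, 382 and 387 CPM, against 454, 390 and 470 CPM in the oil libraries (log2 fold change -0.22, SE 0.15). Macrophage and Kupffer cell markers, of which 11 of 14 had counts to analyse, summed to 5.33 to 13.7 CPM in the tamoxifen libraries and 8.47 to 18.3 CPM in the oil libraries, and hepatocyte markers, 8 of 11, to 2.10 to 8.68 CPM in the tamoxifen libraries and 0.913 to 5.90 CPM in the oil libraries. Lysosome genes are active in all of these cell types. In bulk libraries, fewer cells of a type and less RNA per cell cannot be told apart.

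Many lysosome genes carry a binding element of TFEB and its relatives, transcription factors of lysosome biogenesis, near their start sites. The core of this element, known as CLEAR, reads TCACGTGA. It was searched for in the RefSeq promoter table (build GRCm38.p6), whose windows run from 250 bases before to 50 bases after each start. The sequence is its own reverse complement, so a single search covers both strands, and it contains the general E-box CACGTG. Of the 98 genes 78 were matched in the table by symbol, and 10 of these (12.8%) held TCACGTGA, against 304 of 27025 genes (1.12%) in the whole table. By window the count was 11 of 95 (11.6%), against 0.974% of 32851 windows. Gnptg was counted through overlapping windows that hold the same match. The shorter CACGTG was in 26.9% of the matched lysosome genes and in 8.09% of all genes. The element is known from lysosome genes, so a higher share among them is no new result. The whole table was not limited to genes expressed in these libraries, as the lysosome genes were, and the difference in shares was not tested. A match describes the letters of the window and does not show that a factor binds there.

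The windows of 5 of the 10 genes are shown as examples, from the protease, membrane protein and proton pump roles only. Ctsd (chr7:142387778-142388077, minus strand) is the lysosome gene with the highest level, and the window of Ctsa (chr2:164833523-164833822, plus strand) holds 2 matches. Cd164 (chr10:41519250-41519549, plus strand) is a membrane protein gene and Atp6v0d1 (chr8:105566015-105566314, minus strand) a subunit gene of the proton pump. Mcoln1 (chr8:3500269-3500568, plus strand) is the calcium channel gene with the lowest fold change of the 10. Each window is given 5′ to 3′ on the strand of the gene, and capitals mark TCACGTGA.
Ctsd: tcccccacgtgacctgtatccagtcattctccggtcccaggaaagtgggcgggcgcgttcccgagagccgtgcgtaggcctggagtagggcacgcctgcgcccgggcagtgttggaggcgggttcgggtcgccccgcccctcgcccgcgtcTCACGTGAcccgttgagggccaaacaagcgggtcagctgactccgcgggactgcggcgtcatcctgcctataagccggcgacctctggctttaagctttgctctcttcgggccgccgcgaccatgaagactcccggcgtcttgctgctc
Ctsa: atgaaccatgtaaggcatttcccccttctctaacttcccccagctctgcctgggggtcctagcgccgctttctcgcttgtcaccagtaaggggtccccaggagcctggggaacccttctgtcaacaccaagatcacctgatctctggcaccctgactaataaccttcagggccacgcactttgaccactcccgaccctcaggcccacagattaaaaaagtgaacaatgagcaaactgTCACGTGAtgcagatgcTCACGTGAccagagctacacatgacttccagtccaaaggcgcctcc
Cd164: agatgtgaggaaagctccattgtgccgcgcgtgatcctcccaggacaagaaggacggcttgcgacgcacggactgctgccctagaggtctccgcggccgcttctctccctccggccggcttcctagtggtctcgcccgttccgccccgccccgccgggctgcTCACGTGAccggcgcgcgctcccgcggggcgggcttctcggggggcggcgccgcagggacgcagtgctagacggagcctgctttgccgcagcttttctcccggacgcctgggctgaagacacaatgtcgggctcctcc
Atp6v0d1: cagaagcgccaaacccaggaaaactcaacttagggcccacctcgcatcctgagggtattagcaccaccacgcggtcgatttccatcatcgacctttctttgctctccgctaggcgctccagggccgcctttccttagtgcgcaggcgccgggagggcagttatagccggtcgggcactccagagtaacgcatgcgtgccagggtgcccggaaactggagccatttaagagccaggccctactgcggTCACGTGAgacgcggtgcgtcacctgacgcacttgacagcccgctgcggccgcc
Mcoln1: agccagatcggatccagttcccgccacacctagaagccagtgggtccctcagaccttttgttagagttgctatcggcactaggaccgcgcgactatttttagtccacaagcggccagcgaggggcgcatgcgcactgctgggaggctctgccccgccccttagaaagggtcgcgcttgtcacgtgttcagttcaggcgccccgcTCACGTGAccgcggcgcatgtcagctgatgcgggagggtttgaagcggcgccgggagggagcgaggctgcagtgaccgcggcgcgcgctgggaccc
Counted with the start base as 0, the match began at -99 in Ctsd, at -13 for the first match in Ctsa, at -88 in Cd164, at -4 in Atp6v0d1 and at -46 in Mcoln1. The other 5 genes were Cln3, Gla, Gnptg, Igf2r and Sumf1. By role, 3 of 16 membrane protein genes with a window held the match, 2 of 8 protease genes, 2 of 23 delivery genes, 1 of 12 glycosidase genes, 1 of 5 proton pump genes, 1 of 5 sulfatase genes and 0 of 9 genes of lipid, nucleic acid and phosphate hydrolysis.

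Lysosome genes differed widely in level. Levels are compared between genes in FPKM, the authors' values scaled for transcript length and library size, and CPM, counts scaled to library size with TMM factors, is used to compare libraries for a single gene. Mean FPKM over the 6 libraries ran from 0.330 for Gga2 to 552 for Ctsd, with a median of 15.0, and the median of all 10811 genes tested was 5.89. There were 92 lysosome genes at 1 FPKM or more, 58 at 10 or more and 19 at 50 or more. The 10 highest made up 49.6% of their summed FPKM. The lengths that these FPKM values imply were 0.408 to 2.94 times the exon length in GENCODE M21, with a median of 1.25. The ratio was 0.617 for Ap3s1, rank 8 in level, and 2.02 for Clta, rank 18. The order of levels, beyond neighbours too, and the 10 highest with their share therefore depend on the lengths used.

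The 10 highest genes by these FPKM values were Ctsd, Laptm5, Ctsb, Ap1m1, Lamp1, Ctsc, Ctsz, Ap3s1, Cd164 and Ap4s1. Ctsd encodes cathepsin D, an aspartic protease, and stood at 527 ± 51.9 FPKM in tamoxifen and 576 ± 76.5 FPKM in oil (SD, n = 3 each), with 34.4% of its exon bases shared with another gene model on the same strand. Laptm5, a lysosomal membrane protein gene of blood cells that is known to lower antigen receptor levels in lymphocytes, stood at 238 ± 18.3 FPKM in tamoxifen and 247 ± 34.0 FPKM in oil. Both were above the rest of the genes in every library. Ctsb, the gene of the cysteine protease cathepsin B, stood at 142 ± 11.9 FPKM in tamoxifen and 131 ± 5.94 FPKM in oil, and Ctsc, the gene of cathepsin C, which removes the dipeptides that keep granzymes inactive, at 91.1 ± 2.00 FPKM in tamoxifen and 99.8 ± 6.45 FPKM in oil. Lamp1, the gene of the glycoprotein CD107a that appears on the surface when killer cells degranulate, stood at 97.9 ± 13.6 FPKM in tamoxifen and 98.4 ± 9.52 FPKM in oil.

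The question set by the design was whether these genes differed between tamoxifen and oil, and the highest of them differed by less than their error. Ctsd stood at 2088, 2168 and 1877 CPM in the tamoxifen libraries, against 2272, 2393 and 1990.3 CPM in the oil libraries (log2 fold change -0.12, SE 0.15). Laptm5 stood at 1238, 1365 and 1358 CPM in the tamoxifen libraries, against 1308, 1516 and 1254 CPM in the oil libraries (log2 fold change -0.04, SE 0.15). Lamp1 stood at 231, 240.4 and 192 CPM in the tamoxifen libraries, against 216, 236 and 211 CPM in the oil libraries (log2 fold change 0.00, SE 0.16). In each of the 3 genes the groups overlapped. The 95% intervals of the log2 fold change over the 10 highest genes lay between -0.53 (Ap3s1) and 0.63 (Ap4s1), so differences inside a gene's own interval are not resolved.

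**Figure D1:**
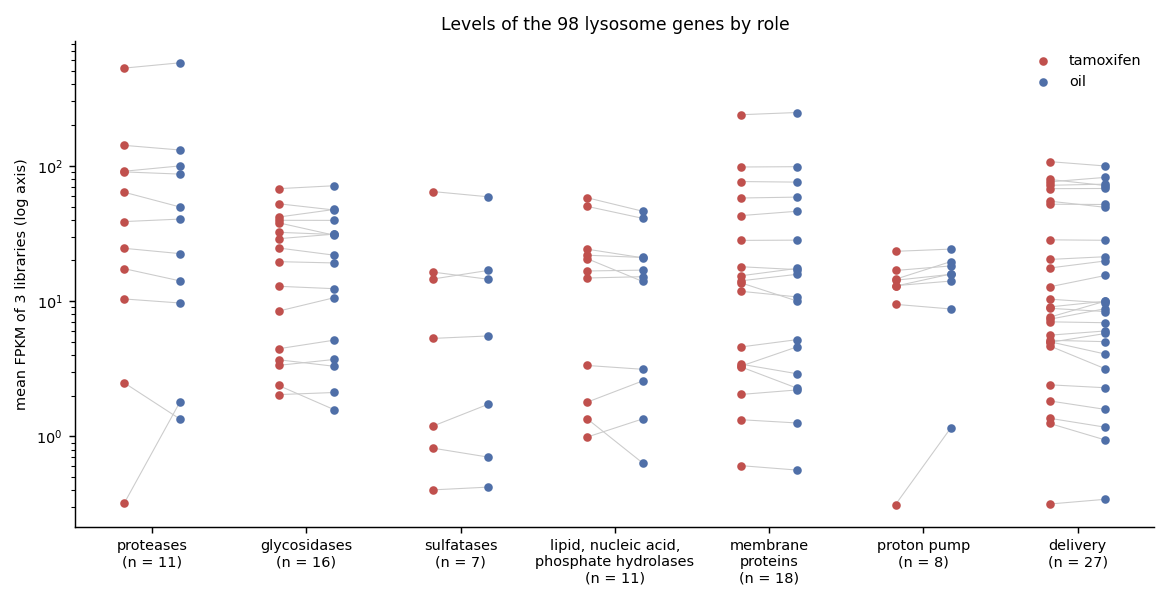
Mean FPKM of each of the 98 lysosome genes (log axis) in tamoxifen (red, left) and oil (blue, right), by role; each pair of joined points is 1 gene and n is the number of genes in the role. Most joining lines are near level, and Lgmn (bottom of the proteases) and Atp6v0d2 (bottom of the proton pump) slope most.

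After Benjamini-Hochberg adjustment no lysosome gene passed edgeR's quasi-likelihood test over all 10811 genes (adjusted p = 0.999 for the smallest), where 0.00925% of all genes passed, which is 1 gene. At an unadjusted p under 0.05 there were 4 of 98 (Lgmn, Smpd1, Dnase2a and Ctse), or 4.08%, against 3.52% of all genes. In 3 of them tamoxifen was higher (1.7% of all genes) and in 1, Lgmn, lower (1.82% of all genes). DESeq2 also passed 0 of 98 after adjustment, against 0.171% of the 12271 genes with an adjusted p-value (21 genes). At an unadjusted p under 0.05 DESeq2 had 3 of the 98 genes and 453 genes in all. The 453 were counted over all genes with a DESeq2 p-value, not over the 12271, so no share stands beside the 3. Of the 98 genes 53 had a higher and 45 a lower estimate in tamoxifen, against 49.5% higher among all genes tested. The median log2 fold change was 0.01 for the lysosome genes and 0.00 for all genes. The middle 50% of the lysosome genes lay between -0.12 and 0.15, and the middle 50% of all genes between -0.20 and 0.17. An estimate within 0.25 of zero was found for 73.5% of lysosome genes and 61.1% of all genes, and for 70.9% of the 4363 genes whose summed counts lay within the quartiles of the lysosome genes. A fold of at least 1.5 in either direction was found for 5 of 98 (5.10%), against 11.8% of all genes. These shares describe the fit and were not tested.

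The share of all counts that came from the 98 genes was 1.26, 1.31 and 1.23% in the tamoxifen libraries and 1.30, 1.35 and 1.20% in the oil libraries. The groups overlapped, and oil replicate 3 had the lowest and oil replicate 2 the highest share.

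**Figure D2:**
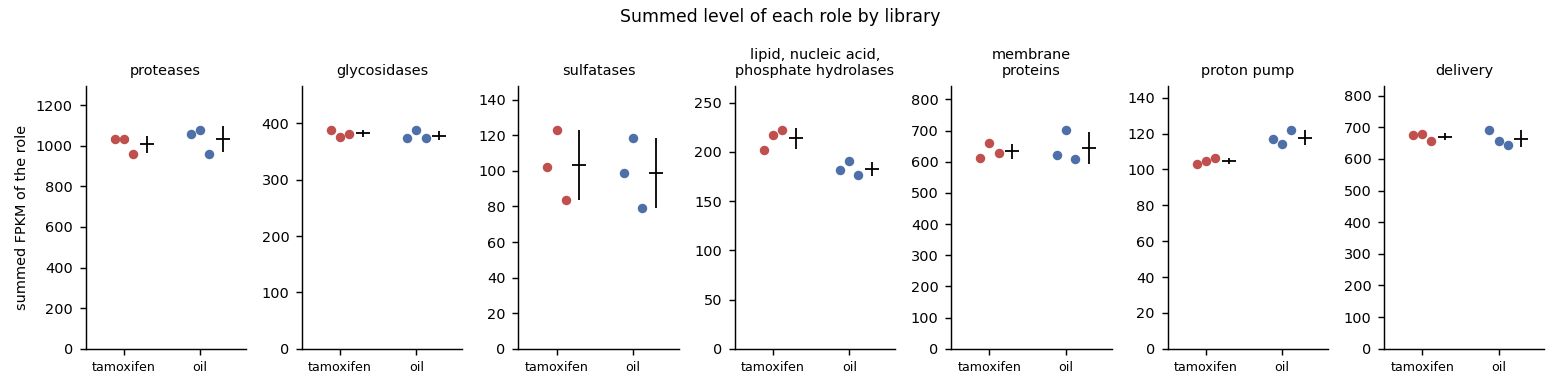
Summed FPKM of the genes of each role in every library (points; tamoxifen red, left, oil blue, right), with mean and SD of 3 libraries as black bars; each axis starts at 0. Lipid, nucleic acid and phosphate hydrolases, a role that also holds Hgsnat, lie above the oil libraries in all 3 tamoxifen libraries. The proton pump lies below, while the other 5 roles overlap. The sums were not tested, and with 3 libraries against 3 the smallest two-sided exact permutation p is 0.1.

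Groups that did not overlap, with every tamoxifen library on the same side of every oil library, were found for 14 of 98 genes (14.3%), against 8.87% of all genes tested. In 8 of them tamoxifen was higher (4.52% of all genes) and in 6 lower (4.35% of all genes). The 8 were Ctse, Idua, Fuca1, Smpd1, Hgsnat, Acp5, Ctns and Ap3m2, and the 6 were Lgmn, Nagpa, Acp2, Scarb2, Atp6v0c and Atp6ap1. None of the 14 passed the adjusted test. Lgmn, Ctse and Idua differed by at least 1.5-fold, and the other 11 by 1.13-fold (Scarb2, lower) to 1.48-fold (Smpd1, higher).

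**Figure D3:**
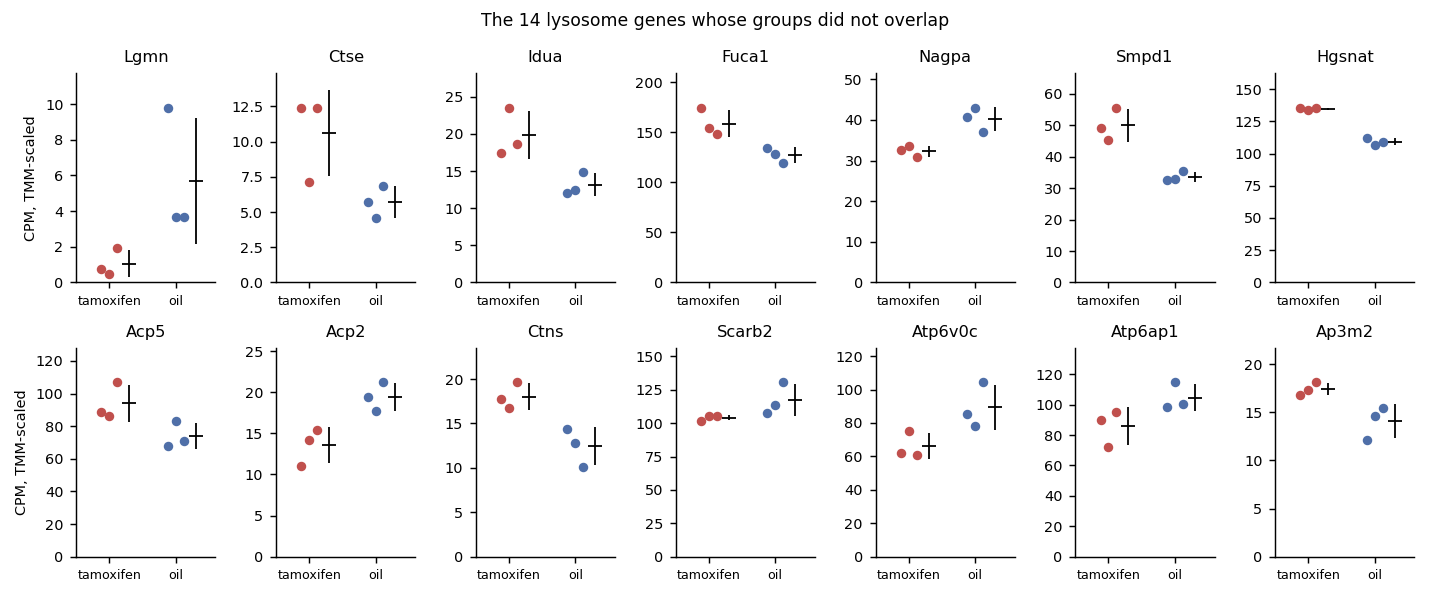
TMM-scaled CPM of the 14 lysosome genes whose groups did not overlap, 1 point per library (tamoxifen red, left, oil blue, right), with mean and SD of 3 libraries in black and each axis starting at 0. Lgmn has the largest ratio between groups at the lowest level, and the gaps of Scarb2 and Ap3m2 are small beside their levels.

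Among proteases, the 4 most abundant cathepsins stood close between treatments, and the estimates farthest from zero belonged to Lgmn and Ctse. Of 11 genes 7 had a higher and 4 a lower estimate, their median log2 fold change was 0.11, and no protease gene passed. Their summed level was 1032, 1031 and 959 FPKM in the tamoxifen libraries and 1059, 1079 and 961 FPKM in the oil libraries, and the groups overlapped. Lgmn (chromosome 12, 102394084 to 102439813, minus strand, mm10), the gene of legumain, an asparaginyl endopeptidase that processes cathepsins, had the largest difference of all 98 genes. It stood at 0.739, 0.496 and 1.90 CPM in the tamoxifen libraries, against 9.77, 3.65 and 3.68 CPM in the oil libraries, from 17 raw counts in tamoxifen and 103 in oil (log2 fold change -2.44, SE 0.71; edgeR's quasi-likelihood test, unadjusted p = 0.00577, adjusted p = 0.999). Oil replicate 1 alone gave 63 of the 103 oil counts, and without it the log2 fold change was -1.80, while without tamoxifen replicate 3 it was -3.18. Legumain is also abundant in macrophages and dendritic cells. The macrophage and Kupffer cell list overlapped between the groups, as given above, with Cd5l and Timd4 at 0 in 5 of 6 libraries each. Csf1r, the marker of that list with enough counts to be tested, stood at 4.25, 3.31 and 2.10 CPM in the tamoxifen libraries, against 4.96, 9.86 and 5.53 CPM in the oil libraries (log2 fold change -1.07, SE 0.51), lower in every tamoxifen library. C1qa went the other way, at 1.11, 0.992 and 0.762 CPM in the tamoxifen libraries, against 0.620, 0 and 0 CPM in the oil libraries. The dendritic cell list, with 7 of 9 genes having counts, summed to 29.1 to 36.2 CPM in the tamoxifen libraries and 23.4 to 44.4 CPM in the oil libraries. Within it Xcr1 stood at 0, 1.98 and 0.762 CPM in the tamoxifen libraries, against 6.67, 3.29 and 5.90 CPM in the oil libraries. Zbtb46 stood at 3.70, 2.15 and 0.762 CPM in the tamoxifen libraries, against 4.65, 8.76 and 9.21 CPM in the oil libraries. Both were lower in every tamoxifen library, with log2 fold changes of -2.48 (SE 0.86) and -1.76 (SE 0.61), and neither passed after adjustment. Flt3 stood at 0 CPM in each tamoxifen library, against 0, 1.46 and 0.921 CPM in the oil libraries. H2-Aa was higher in every tamoxifen library, at 1.66, 1.82 and 1.71 CPM in the tamoxifen libraries, against 0, 0 and 0.184 CPM in the oil libraries, and Cd74 and H2-Ab1 had estimates of 0.64 (SE 0.47) and 0.38 (SE 0.37) with overlapping groups. Csf1r, Xcr1 and Zbtb46 were thus lower in every tamoxifen library, as Lgmn was, and C1qa and H2-Aa were higher in every one. The part of these cells in the Lgmn values was not tested.

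Ctse, the gene of cathepsin E, an aspartic protease of endosomes, stood at 12.4, 7.11 and 12.4 CPM in the tamoxifen libraries, against 5.74, 4.56 and 6.82 CPM in the oil libraries (log2 fold change 0.89, SE 0.40). Every tamoxifen library lay above every oil library, by a margin of under 1 CPM at the nearest pair. Napsa, an aspartic protease gene related to Ctsd, stood at 162, 128 and 164 CPM in the tamoxifen libraries, against 125, 84.7 and 142 CPM in the oil libraries (log2 fold change 0.37, SE 0.22), with overlapping groups. Of the exon bases of Napsa 18.9% are shared with a gene on the opposite strand, and of those of Ctsb 12.8% with Fdft1, also opposite, and whether reads were counted by strand is not stated. Ctsb and Ctsc had estimates of 0.13 (SE 0.15) and -0.12 (SE 0.15), and Ctsz, a carboxypeptidase gene, 0.06 (SE 0.17). Cystatin F, encoded by Cst7, restrains cathepsin C in killer cells. It stood at 221, 178 and 242 CPM in the tamoxifen libraries, against 152, 171 and 241 CPM in the oil libraries, with overlapping groups.

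Glycosidases, which trim sugars from glycoproteins and glycolipids, were 9 higher and 7 lower of 16, at a median of 0.03 on the log2 scale and none passing. They summed to 389, 375 and 382 FPKM in the tamoxifen libraries and 374, 388 and 373 FPKM in the oil libraries. Idua, the gene of alpha-L-iduronidase, which degrades heparan and dermatan sulphate, stood at 17.4, 23.5 and 18.7 CPM in the tamoxifen libraries, against 12.1, 12.4 and 14.9 CPM in the oil libraries (log2 fold change 0.59, SE 0.29). Fuca1, the gene of alpha-L-fucosidase, stood at 174, 154 and 148 CPM in the tamoxifen libraries, against 134, 128 and 119 CPM in the oil libraries (log2 fold change 0.32, SE 0.17). In both genes tamoxifen was above oil in every library without passing. Nagpa, counted with this role, encodes the enzyme that uncovers the mannose 6-phosphate tag, and it went the other way, at 32.5, 33.6 and 30.9 CPM in the tamoxifen libraries, against 40.8, 42.9 and 37.0 CPM in the oil libraries (log2 fold change -0.32, SE 0.22).

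Sulfatases and their activator Sumf1 were 3 higher and 4 lower of 7, with a median of -0.04 and none passing. Arsb, the gene of arylsulfatase B, led the role at 64.5 ± 8.72 FPKM in tamoxifen and 59.0 ± 12.4 FPKM in oil, and 32.3% of its exon bases are shared with a gene on the opposite strand. Galns and Ids, sulfatase genes of keratan and of heparan and dermatan sulphate breakdown, had estimates of -0.20 (SE 0.24) and -0.52 (SE 0.41), and Arsb 0.14 (SE 0.18). All 7 sulfatase genes had groups that overlapped.

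Genes of lipid, nucleic acid and phosphate breakdown, a role that also holds the heparan sulphate gene Hgsnat, were 7 higher and 4 lower of 11. Their median was 0.10 on the log2 scale. No gene passed, and 4 of the 11, Hgsnat among them, had groups that did not overlap, beside 8.87% of all genes tested. Their summed level was 202, 217 and 223 FPKM in the tamoxifen libraries and 181, 191 and 176 FPKM in the oil libraries. All 3 tamoxifen sums exceeded all 3 oil sums, which was not tested. Hgsnat gave 49.3, 51.7 and 49.5 FPKM of the sums in the tamoxifen libraries and 42.7, 41.1 and 38.9 FPKM in the oil libraries. Smpd1 (chromosome 7, 105554360 to 105558388, plus strand), the gene of acid sphingomyelinase, which releases ceramide from sphingomyelin, stood at 49.2, 45.1 and 55.4 CPM in the tamoxifen libraries, against 32.4, 33.0 and 35.4 CPM in the oil libraries (log2 fold change 0.57, SE 0.22; edgeR's quasi-likelihood test, unadjusted p = 0.0242, adjusted p = 0.999). The oil libraries lay within 4 CPM of each other and the lowest tamoxifen library was above all of them. Its log2 fold change was 0.49 to 0.64 when each library was left out in turn. Hgsnat, the gene of the acetyltransferase that acts on heparan sulphate, stood at 135, 134 and 135 CPM in the tamoxifen libraries, against 112, 106 and 109 CPM in the oil libraries (log2 fold change 0.30, SE 0.16). Acp5, the gene of tartrate-resistant acid phosphatase, stood at 88.7, 86.5 and 107 CPM in the tamoxifen libraries, against 67.9, 83.0 and 71.1 CPM in the oil libraries (log2 fold change 0.34, SE 0.19). Acp2, another acid phosphatase gene, was lower in every tamoxifen library, at 11.1, 14.2 and 15.4 CPM in the tamoxifen libraries, against 19.4, 17.7 and 21.2 CPM in the oil libraries (log2 fold change -0.52, SE 0.29), and 12.6% of its exon bases are shared with Ddb2 on the opposite strand.

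Dnase2a, the gene of the acid DNase that digests DNA in lysosomes, stood at 13.9, 9.26 and 15.0 CPM in the tamoxifen libraries, against 10.4, 2.92 and 4.42 CPM in the oil libraries (log2 fold change 1.09, SE 0.49; edgeR's quasi-likelihood test, unadjusted p = 0.0470, adjusted p = 0.999). The groups overlapped through oil replicate 1, and without that library the log2 fold change was 1.79. Mast1, which lies opposite, covers 30.0% of the exon bases of Dnase2a. Psap, the gene of prosaposin, the precursor of the activators of sphingolipid breakdown, was listed at 3.35 ± 0.870 FPKM in tamoxifen and 3.14 ± 0.653 FPKM in oil, rank 77 of the 98 genes. It stood at 0.10 (SE 0.33) on the log2 scale.

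Membrane proteins, a role that also holds the soluble protein Npc2, were 10 higher and 8 lower of 18, with a median of 0.01 and none passing. They summed to 613, 659 and 627 FPKM in the tamoxifen libraries and 622, 703 and 609 FPKM in the oil libraries, and the groups overlapped. Ctns, the gene of the cystine exporter cystinosin, stood at 17.7, 16.7 and 19.6 CPM in the tamoxifen libraries, against 14.4, 12.8 and 10.1 CPM in the oil libraries (log2 fold change 0.53, SE 0.29), above oil in every tamoxifen library. Scarb2, the gene of LIMP-2, the receptor that carries glucocerebrosidase to lysosomes, stood at 102, 105 and 105 CPM in the tamoxifen libraries, against 108, 114 and 130.4 CPM in the oil libraries (log2 fold change -0.17, SE 0.17), below oil in every tamoxifen library by a margin smaller than the spread of the oil libraries. Cd68, a glycoprotein gene best known from macrophages, stood at 27.2, 23.0 and 34.9 CPM in the tamoxifen libraries, against 13.0, 23.7 and 25.4 CPM in the oil libraries (log2 fold change 0.45, SE 0.32), and Mcoln1, the gene of the calcium channel TRPML1, at 22.2, 14.9 and 15.8 CPM in the tamoxifen libraries, against 25.0, 32.5 and 14.2 CPM in the oil libraries (log2 fold change -0.44, SE 0.34). Both had overlapping groups. Npc1 and Npc2, which pass cholesterol out of the lysosome, had estimates of 0.08 (SE 0.28) and -0.02 (SE 0.17), and Cd164, a sialomucin gene, of 0.02 (SE 0.16).

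Genes of the proton pump, here the membrane-bound V0 part with accessory subunits and Atp6v1h of the V1 part, had mostly lower estimates in tamoxifen. Of 8 genes 7 had a lower and 1, Tcirg1, a higher estimate, at a median of -0.12 on the log2 scale, beside 49.5% higher and a median of 0.00 over all genes tested. Several differed from zero by less than their SE: Atp6v0b (-0.06, SE 0.23), Atp6v0d1 (-0.11, SE 0.26), Atp6v0a2 (-0.13, SE 0.24), Atp6v1h (-0.10, SE 0.17) and Tcirg1 (0.13, SE 0.20). None of the 8 passed the test, and the share of lower estimates was not tested. Their summed level was 103, 105 and 106 FPKM in the tamoxifen libraries and 117, 114 and 122 FPKM in the oil libraries. Every tamoxifen sum was below every oil sum, which was not tested. Atp6v0c, the gene of the proteolipid ring through which protons pass, stood at 62.3, 75.2 and 60.9 CPM in the tamoxifen libraries, against 85.3, 78.5 and 104 CPM in the oil libraries (log2 fold change -0.43, SE 0.20). GENCODE M21 lists 2 pseudogenes named after Atp6v0c, and how reads that match several places were counted is not stated. Atp6ap1, the gene of an accessory subunit, stood at 90.2, 72.1 and 95.4 CPM in the tamoxifen libraries, against 98.7, 115 and 100.4 CPM in the oil libraries (log2 fold change -0.28, SE 0.19). These were the 2 of the 8 genes whose groups did not overlap, beside 8.87% of all genes tested. Atp6v0d2, an isoform gene known from osteoclasts and macrophages, was near the floor, at 0.370, 2.15 and 0 CPM in the tamoxifen libraries, against 5.43, 2.37 and 1.66 CPM in the oil libraries, from 15 raw counts in tamoxifen and 57 in oil (log2 fold change -1.85, SE 0.98). Its groups overlapped, 35 of the 57 oil counts came from oil replicate 1, and the part of macrophages, whose marker list is given above, was not tested. Without oil replicate 1 its log2 fold change was -1.21, and without tamoxifen replicate 2 it was -3.93. The estimate was lower for 7 of the 8 pump genes in 12 of 14 alternative fits, for 6 without oil replicate 1 and for 5 without oil replicate 3.

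A further list of 9 pump genes that are not among the 98 held 7 genes of the cytosolic V1 part, the membrane subunit gene Atp6v0e and the accessory gene Atp6ap2. Of these 9 genes 6 had a higher and 3 a lower estimate, with a median of 0.08, and none passed. Atp6v1e1, a V1 subunit gene, stood at 184, 141 and 196 CPM in the tamoxifen libraries, against 82.7, 131 and 107 CPM in the oil libraries (log2 fold change 0.70, SE 0.22; edgeR's quasi-likelihood test, adjusted p = 0.999), above oil in every tamoxifen library, and Atp6v1a had an estimate of 0.25 (SE 0.28). The difference between this list and the 8 pump genes was not tested.

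Delivery genes were 16 higher and 11 lower of 27, with a median of 0.02 and none passing, and their summed level was 677, 678 and 658 FPKM in the tamoxifen libraries and 693, 657 and 643 FPKM in the oil libraries. Ap1m1, a subunit gene of the AP-1 adaptor that sorts cargo between the Golgi and endosomes, led the role at 107 ± 12.4 FPKM in tamoxifen and 99.7 ± 2.79 FPKM in oil. Ap3s1, a small subunit gene of the AP-3 adaptor, which carries proteins to lysosome-related organelles, followed at 76.1 ± 7.75 FPKM in tamoxifen and 82.1 ± 12.8 FPKM in oil. Ap4s1, its counterpart in the AP-4 adaptor, stood at 79.2 ± 1.13 FPKM in tamoxifen and 71.4 ± 15.9 FPKM in oil. GENCODE M21 lists 2 pseudogenes named after Ap3s1. Of the mannose 6-phosphate receptors, M6pr stood at 71.8 ± 0.345 FPKM in tamoxifen and 73.2 ± 10.6 FPKM in oil and Igf2r at 1.36 ± 0.630 FPKM in tamoxifen and 1.17 ± 0.435 FPKM in oil, so M6pr was the higher of the pair in every library. The smallest p-values belonged to Cltc, the clathrin heavy chain gene, at 66.0, 95.4 and 88.9 CPM in the tamoxifen libraries, against 121, 127 and 77.9 CPM in the oil libraries (log2 fold change -0.38, SE 0.23), to Ap3m2 (log2 fold change 0.31, SE 0.28) and to Ap1m2 (log2 fold change 0.57, SE 0.57). Only Ap3m2 of the 27 had groups that did not overlap, beside 8.87% of all genes tested.

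**Figure D4:**
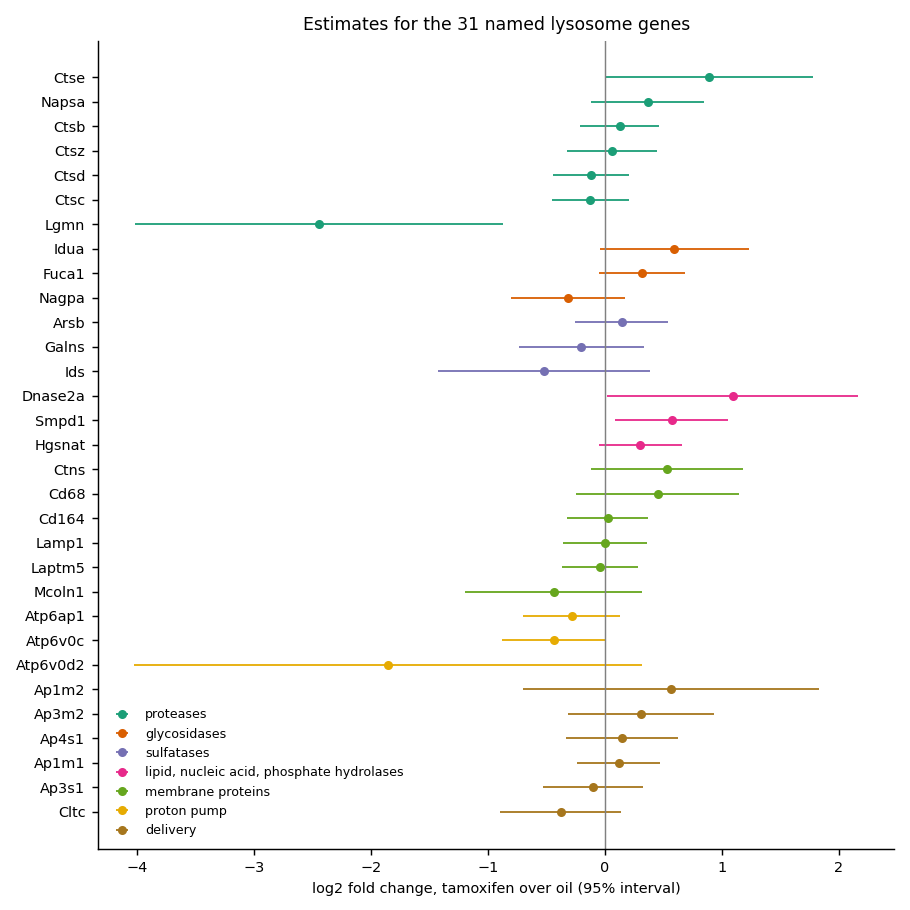
Log2 fold change of tamoxifen over oil for the 31 lysosome genes named by the rule, with 95% intervals from edgeR's quasi-likelihood fit, grouped by role; the vertical line marks no difference. The intervals of Lgmn and Smpd1 and, narrowly, of Ctse and Dnase2a leave out zero before adjustment, and no adjusted p-value passed.

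Control genes of the compartment were read beside its parts. Of 20 tested genes of TFEB and mTORC1 control 9 were higher and 11 lower, with a median of -0.04. Tfeb stood at 27.0, 37.5 and 27.2 CPM in the tamoxifen libraries, against 41.9, 48.9 and 16.4 CPM in the oil libraries (log2 fold change -0.22, SE 0.37), and Tfe3, its relative, at 9.95 ± 1.76 CPM in tamoxifen and 15.0 ± 6.96 CPM in oil (log2 fold change -0.59, SE 0.41). Both overlapped between groups. The smallest p-values in this list belonged to Rragc, a Rag GTPase gene, at 54.3 ± 6.18 CPM in tamoxifen and 36.9 ± 10.4 CPM in oil (log2 fold change 0.56, SE 0.26), and Tsc1, at 9.34 ± 1.13 CPM in tamoxifen and 13.8 ± 3.52 CPM in oil (log2 fold change -0.56, SE 0.34). The 10 genes whose windows held TCACGTGA had a higher estimate in 4 cases, at a median of -0.05 on the log2 scale. The 68 matched genes without it had a higher estimate in 38 cases, at a median of 0.04.

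Autophagy and fusion genes were 19 higher and 11 lower of 30, with a median of 0.07. Rab7, the GTPase gene of late endosomes, stood at 506, 451 and 403 CPM in the tamoxifen libraries, against 321, 275 and 367 CPM in the oil libraries (log2 fold change 0.50, SE 0.17). Vps41, a subunit gene of the tethering complex that acts with Rab7, stood at 163, 131 and 139 CPM in the tamoxifen libraries, against 114, 118 and 97.6 CPM in the oil libraries (log2 fold change 0.39, SE 0.18). For both, tamoxifen was above oil in every library. Granule genes were 10 higher and 5 lower of 15 (median 0.09), with Rab27a, which docks granules, at 0.39 (SE 0.26) and Hps6 at -0.35 (SE 0.34). Cystatins were 2 higher and 1 lower of 3 (median 0.19), with Cst3 at 0.19 (SE 0.20) and Cst7 at 0.19 (SE 0.21). None of these genes, nor of the TFEB and mTORC1 list, passed edgeR's quasi-likelihood test after Benjamini-Hochberg adjustment.

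The count minimum left out 12 lysosome genes, none of which had enough counts to enter the test. The 4 genes just above it were Lamp3, Atp6v0d2, Lgmn and Gga2, with 67, 72, 120 and 161 counts over 6 libraries. Just below it, Ctsh had 0 counts in each tamoxifen library, against 16, 6 and 21 in the oil libraries. The 95% exact binomial interval of the ratio of oil to tamoxifen for Ctsh, scaled to library totals, began at 10.8 and has no upper end, and covers counting error only. Ctsl went the other way, with 8, 13 and 17 counts in the tamoxifen libraries, against 0, 1 and 1 in the oil libraries. That is a ratio of 19.6 after scaling to library totals (95% exact binomial interval 5.07 to 168, counting error only). Ctsh and Ctsl encode the cysteine proteases cathepsin H and cathepsin L, both of which antigen-presenting cells also use; the dendritic cell and macrophage lists are given above, and their part in these counts was not tested. Cd63, a tetraspanin gene of late endosomes and granules, had 2, 5 and 6 counts in the tamoxifen libraries, against 10, 11 and 8 in the oil libraries. Laptm4b, Galc, Pla2g15, Ap1s3, Hyal1, Arsg, Atp6v0a1, Ctsf and Sort1 had 42 counts or fewer over all libraries, with groups that overlapped. Ctsh, Ctsl and Cd63 were chosen for description after their values were seen, and no test is given for them.

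**Figure D5:**
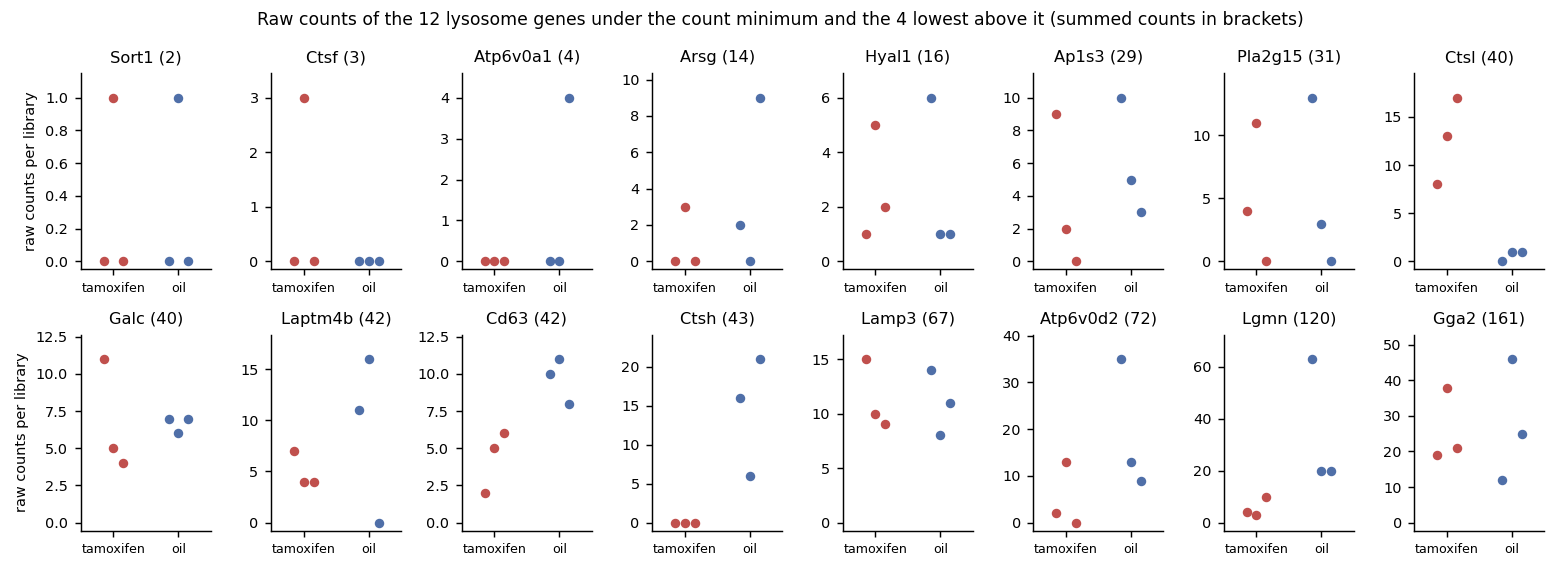
Raw counts in each library (tamoxifen red, left, oil blue, right) of the 12 lysosome genes under the minimum of 60 summed counts and the 4 lowest above it, with the sum over 6 libraries in brackets. Ctsh is at 0 in all tamoxifen libraries, and Ctsl has at most 1 count in an oil library.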

How the data were processed

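Libraries of total RNA, reverse transcribed and amplified by PCR per the labels' protocols, from mouse liver lymphocytes (3 tamoxifen, 3 oil) were read from 1 deposited table of genes. The authors deposited a raw count per gene and library, an FPKM value for each of these, and the p-value and q-value of their own comparison. The submitters' processing notes name HISAT2, StringTie and the genome build mm10; the counting tool and its strand setting are not stated. Library totals of 5289803 to 6325899 counts make a floor of 3 counts equal to 0.474 to 0.567 CPM, and exact binomial intervals cover counting error only, while intervals of fold changes include the spread among libraries. The labels do not say that libraries came from separate animals, so the p-values reflect spread among these libraries, which may be technical.

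Members were the rows with the KEGG term Lysosome, without Ctsw and Slc genes, and with at least 60 counts in all. The members and lists were chosen with earlier results of these data known. Counts were tested for tamoxifen over oil with edgeR 4.0.16 (TMM factors, filterByExpr, quasi-likelihood test, R 4.3.3) on all 10811 genes that passed the filter, with Benjamini-Hochberg adjustment and a threshold of 0.05. On simulated negative binomial counts of 10592 genes, 98 were changed by 1 and 90 by 2 on the log2 scale. The fit called 37.8% of the former and 82.2% of the latter, with 4 false calls. Adjustment is stricter where fewer genes differ, and 1 gene passed in the real data, so these shares can overstate what the fit would find here. A gene that did not pass is therefore not shown to be unchanged. Genes named with full values were the 10 with the highest mean FPKM, the 3 with the smallest p in each role, and any gene that passed or that did not overlap between groups and differed by at least 1.5-fold; from each pathway list the 2 with the smallest p were named. Tfeb, Tfe3, Psap, Npc1, Npc2, M6pr, Igf2r, the single cell type markers, the remaining proton pump genes and the remaining genes with groups that did not overlap were added after their values were seen. Alternatives were DESeq2 1.42.0, limma 3.58.1 on log2(FPKM + pseudocount), other scaling factors, no filter, a replicate block and leaving out each library. Exon overlaps come from GENCODE M21 and promoters from RefSeq.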

Additional observations from a re-analysis of the deposited data

How the results depend on the processing

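The number of lysosome genes that passed was 0 under all 14 alternatives run, and the lowest adjusted p of any of the 31 genes named by the rule was 0.504. Over all genes, 1 passed with TMM, RLE and upper-quartile factors, 6 without the filter, 21 with DESeq2, 0 with each of 3 limma fits on log2(FPKM + 1) with and without the filter and log2(FPKM + 0.1), 0 with the replicate block, and 0 to 6 when each library was left out in turn. Whether the replicate numbers pair the libraries was not settled. Deviations from the group means correlated at -0.07, 0.27 and 0.16 for libraries of the same number, and at -0.33 to 0.17 for libraries of different numbers. With the block 54 lysosome genes had a higher estimate, against 53 without it. Leaving out a library gave 47 to 55. The median log2 fold change of lysosome genes was 0.0012 with limma on log2(FPKM + 1), with or without the filter, and -0.011 to 0.026 when a library was left out. The share of counts from lysosome genes (tamoxifen minus oil) was -0.017 percentage points, -0.0616 to 0.0170 when a library was left out, and 0.0103 without the 100 highest genes. The count of genes whose groups did not overlap was 14 or 15 under 3 other scalings and on the deposited FPKM values, alternatives chosen after seeing the data.

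Of the 31 genes, 24 kept their direction in all alternatives. Lamp1, at 0.0021, was -0.0023 with RLE, -0.0094 with upper-quartile factors, -0.0099 without the filter, -0.0018 with DESeq2, -0.0122 with limma on log2(FPKM + 1) with and without the filter, -0.0124 on log2(FPKM + 0.1) and -0.0029 with the block. When each library was left out, log2 fold changes spanned -0.062 to 0.096 for Lamp1, -0.0073 to 0.185 for Ap1m1, -0.056 to 0.072 for Cd164, -0.053 to 0.133 for Ctsz, -0.220 to 0.0094 for Ap3s1, -0.013 to 0.991 for Ap1m2 and -0.105 to 0.043 for Laptm5. The cause of these moves was not tested. Depth limits the scarce genes most: Lgmn, Atp6v0d2, Ctsh and Ctsl rest on 120 counts or fewer over 6 libraries.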
